A study of Mus musculus with 29 samples.

Results

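The loci described here are 6 windows of the mouse genome (build mm9) named for genes whose imprints come from the mother: Igf2r/Airn (chr17:12932000-12938000), Impact (chr18:13129000-13134000), Peg13 (chr15:72635000-72643000), Slc38a4 (chr15:96883000-96888000), Inpp5f (chr7:135830000-135834000) and Mcts2 (chr2:152511000-152515000). They were chosen by these coordinates, with no measured value in the rule, and hold 221 of the 2828076 autosomal CpGs found in at least 1 library. At a maternally imprinted locus the egg passes on a methylated copy and the sperm an unmethylated one, so that most tissues show intermediate methylation. The mark is copied at each cell division, and once both copies are unmethylated in a cell outside the germ line there is no known route that restores it to the maternal copy alone. Exons, introns and UTRs were not assigned, since no mm9 annotation was used here.

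DNA methylation was read by reduced representation bisulfite sequencing (RRBS), a method that samples CpG-dense regions, for 15 groups of mouse cells (29 libraries). The embryonic stem cells (ESCs) were male and of 3 lines (J-34, J-35, also J-37), which entered each medium at passage 4. They were collected after 6 passages (p10) or 16 passages (p20), and the study asks what long suppression of the kinases Mek1 and Mek2 does to such cells. Depth was 8359802 to 22433006 CpG reads per library, and each of the 6 windows had at least 23 reads in every library.

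The Mek1/2 double knockout is 1 library of male induced pluripotent cells, a single clonal line made from fibroblasts, grown in serum with LIF (S/L); no Mek1/2-intact line of that origin is among the groups. PD and CHIR usually stand for inhibitors of Mek1/2 (PD) and of Gsk3 (CHIR); they are 1 library each of J-34 kept in the compound for 6 passages. The medium 2i/L has 3 libraries at p10 and 3 at p20, one per line. Cultures moved from 2i/L back to S/L have 3 libraries after 3 passages (p23, all lines) and 2 after 10 passages (p30). One p30 library is titled J-35 while its cell type label and protocol say J-34; the title is used below. The media a2i/L and PKCi/L, whose composition the labels do not give, have 1 library each at p10 (J-34 for a2i/L, J-35 for PKCi/L) and 2 each at p20 (J-34 and J-35). S/L has 3 libraries at p10 and 3 at p20, again one per line. Keratinocytes of newborn mice comprise 2 libraries labelled 2i/L and male, with no label telling how they derive from 2i/L culture, and 1 wild-type library labelled female.

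Wild-type keratinocytes, as a body tissue, served to check the label of each window. Their level was 46.2% at Igf2r/Airn, 40.7% at Impact, 49.7% at Peg13, 52.2% at Inpp5f and 36.99% at Mcts2. Slc38a4 stood apart at 73.1% in wild-type keratinocytes (Wilson 95% interval 61.5 to 82.3, 67 reads), and its mean lay between 2.14% and 30.3% in every ESC group, so intermediate methylation was not seen there in S/L. The Inpp5f value rests on 23 reads, with an interval of 33.0 to 70.8%. These intervals cover counting error only.

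**Figure D1:**
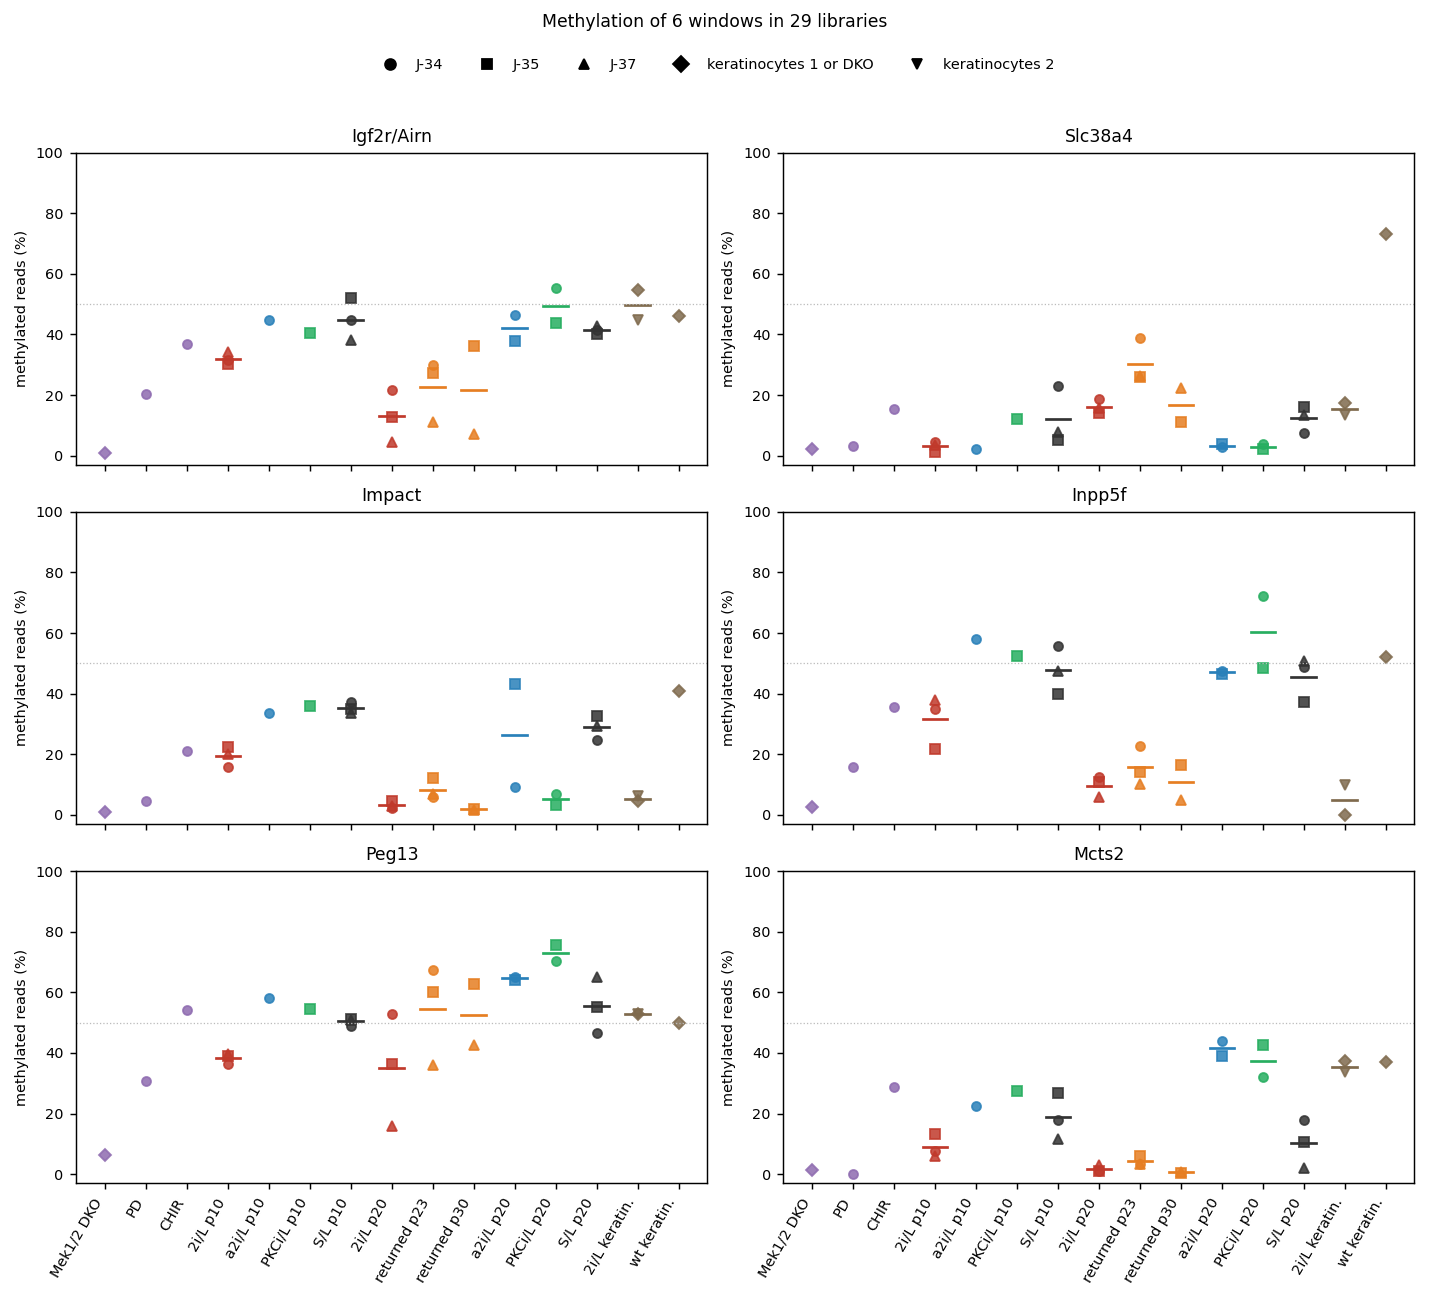
Share of methylated reads (%, vertical axes) in each of the 29 libraries for the 6 windows, by group. Each point is a library, its shape the line, and bars are group means where a group has 2 or more libraries. At Impact and Inpp5f the points of 2i/L p20, of both returned groups and of 2i/L keratinocytes lie below those of S/L p20.

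Of the promoter sequences at hand, the one of Mcts2, a retrogene that lies within an intron of another gene and encodes a translation re-initiation factor, could be placed on the files. Its CpG spacing matched all 14 CpGs that the files list in that span, at a single position. Only placements of 4 or more CpGs were counted, a minimum set after the data were seen. It is shown because these CpGs carry 58.1% of the reads at the 40 Mcts2 CpGs listed in at least 5 libraries. The sequence is the RefSeq promoter (build GRCm38.p6, plus strand, chr2:152686898-152687177), from 250 bases before the start to 30 after it. Capitals mark the lined-up CpGs that fall in the printed stretch, 13 in number.
Mcts2: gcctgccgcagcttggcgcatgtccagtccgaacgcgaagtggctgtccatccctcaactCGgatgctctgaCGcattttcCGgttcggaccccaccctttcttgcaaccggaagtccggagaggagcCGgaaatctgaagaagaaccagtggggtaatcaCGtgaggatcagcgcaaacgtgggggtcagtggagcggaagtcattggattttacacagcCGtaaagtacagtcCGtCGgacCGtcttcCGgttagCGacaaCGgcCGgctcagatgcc
The hexamer TGCCGC, the core of the motif of the imprint-protecting protein ZFP57, was searched on both strands and occurs once in the Mcts2 promoter. It occurs in 11.6% of 32851 mouse promoters of the same 300-base length, and not in the promoter sequences of Igf2r, Airn, Slc38a4 or Inpp5f. Those sequences could not be placed on the files. They therefore do not tell whether the motif occurs in the measured windows named for these genes. Promoter sequences of Impact and Peg13 were not used here.

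After 6 passages in 2i/L, methylation was lower at all 6 windows by group mean, but no window passed the test. A window was called when limma's Benjamini-Hochberg adjusted p, over all 88052 windows and 1-kb tiles of the genome, was under 0.05 and group means differed by at least 20 percentage points. Slc38a4 and Mcts2 could not be called lower than S/L at all. Their S/L means were 12.1% and 18.7% at p10, and 12.3% and 10.1% at p20, less than the 20 points required. By that rule 0 of 6 windows were called in 2i/L p10 against S/L p10, where 61.8% of all features were called lower. Without adjustment 2 of 6 had a p under 0.05, beside 74.6% of all tiles; the quasi-binomial model, too, called 0. The median difference of the 6 windows was -12.5 points, beside -33.6 points over all tiles and -41.3 points over the 12851 tiles at 30 to 70% in wild-type keratinocytes.

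Impact encodes a regulator of the translation kinase Gcn2. Its level was 15.7%, 22.4% and 20% in 2i/L p10 of J-34, J-35 and J-37, against 37.1%, 34.8% and 33.7% in S/L p10. The groups did not overlap, as at 5 of the 6 windows; over all features 72.6% lay below S/L p10 without overlap. With 3 libraries against 3, an exact two-sided permutation test cannot give a p below 0.1, and it gave 0.1 at each of those 5 windows. Igf2r/Airn averaged 31.9% ± 2.02 in 2i/L p10 and 44.9% ± 6.91 in S/L p10 (SD, n = 3 each). Peg13 averaged 38.3% ± 1.65 in 2i/L p10 and 50.4% ± 1.22 in S/L p10, and Inpp5f 31.5% ± 8.75 in 2i/L p10 and 47.7% ± 7.78 in S/L p10. Slc38a4 had 4.55%, 1.12% and 3.53% in 2i/L p10, against 22.95%, 5.32% and 7.89% in S/L p10 (-8.99 points, limma adjusted p = 0.00632, under the size required). Mcts2 had 7.49%, 13.4% and 6.08% in 2i/L p10, against 17.9%, 26.7% and 11.6% in S/L p10, and was the window whose libraries overlapped.

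After 16 passages in 2i/L most windows were lower than in S/L p20 by group mean, with a median difference of -23.2 points. That was less than the -32.5 points over all tiles and the -38.0 points over tiles at 30 to 70% in wild-type keratinocytes. Igf2r/Airn, the promoter region of the non-coding RNA Airn that silences the growth factor receptor gene Igf2r in cis, held 21.5%, 12.9% and 4.39% in 2i/L p20 of J-34, J-35 and J-37, against 41.3%, 40.2% and 42.7% in S/L p20. The 2i/L libraries spread widely and all lay below S/L. The difference was -28.5 points (log2 ratio -2.47 ± 0.61 SE, limma adjusted p = 0.00072). Summed only over the CpGs at 30 to 70% in wild-type keratinocytes, it was -13.3 points and not called (limma adjusted p = 0.534).

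Impact fell to 2.35%, 4.49% and 2.92% in 2i/L p20, against 24.8%, 32.6% and 29.4% in S/L p20 (log2 ratio -3.40 ± 0.54 SE, limma adjusted p = 3.34e-06). Inpp5f, which encodes a phosphoinositide phosphatase, had 12.5%, 10.7% and 5.83% in 2i/L p20, against 48.9%, 37.3% and 50.6% in S/L p20 (log2 ratio -2.91 ± 0.52 SE, limma adjusted p = 1.64e-05). No 2i/L library reached any S/L library at Igf2r/Airn, Impact and Inpp5f, 3 of the 6 windows, as at 69.1% of all features. Together with Peg13 these made 4 of 6 windows called lower, where 58.3% of all features were.

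Peg13 is a non-coding RNA expressed from the paternal copy. Its lines went apart in 2i/L p20, with 52.8% in J-34, 36.2% in J-35 and 16.0% in J-37, against 46.7%, 55.1% and 65.1% in S/L p20. J-34 was thus above its own S/L culture and J-37 far below. The difference of -20.6 points was called (limma adjusted p = 0.0316), and it was not called on CpGs read in each of the 21 fitted libraries (-19.6 points), nor without J-37 of 2i/L p20 (-11.1 points, limma adjusted p = 0.292), J-35 of S/L p20 (adjusted p = 0.0574) or J-37 of S/L p20 (adjusted p = 0.133).

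Mcts2 held 0.88%, 0.88% and 2.96% in 2i/L p20, against 17.8%, 10.7% and 1.87% in S/L p20. The S/L libraries themselves ranged widely and J-37 was near 0 in both media, so the difference of -8.57 points stayed under the size required although its limma adjusted p was 0.00195. At the 8 lined-up promoter CpGs read in all fitted libraries, 0 of 399 reads were methylated in 2i/L p20, pooled over 3 libraries. By counting error only, this would allow a share of up to 0.752% if those reads were independent. S/L p20 had a mean of 9.93% ± 8.17 (SD, n = 3) at these CpGs. Slc38a4, which encodes an amino acid transporter, averaged 16.1% ± 2.51 (SD, n = 3) in the 2i/L libraries at p20 and 12.3% ± 4.51 (SD, n = 3) in their S/L counterparts, and the libraries overlapped.

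Between p10 and p20 no window was called in 2i/L, beside 0.242% of features called lower and 0.00227% called higher, though 5 of 6 had an unadjusted p under 0.05, beside 16.1% of all tiles. Impact averaged 3.25% ± 1.11 (SD, n = 3) at p20 of 2i/L and 19.4% ± 3.41 (SD, n = 3) at p10, a difference of -16.1 points (limma adjusted p = 0.0278). Inpp5f averaged 9.69% ± 3.46 at 2i/L p20 and 31.5% ± 8.75 at 2i/L p10, and the quasi-binomial model called it (adjusted p = 0.00644). Without J-34 of 2i/L p20, limma called Igf2r/Airn (adjusted p = 0.0309) and Inpp5f (0.0248). The median over the windows was -11.8 points, beside -1.37 points over all tiles. In S/L no window was called between p20 and p10, beside 0.167% of features called lower and 0.00227% called higher; 1 of 6 reached p under 0.05 before adjustment (18.9% of all tiles), and 0 were called by the quasi-binomial model. The test of whether the 2i/L effect at p20 differed from that at p10 called 0 of 6 windows (0.00341% of features lower, 0.00114% higher). Before adjustment 3 had p under 0.05, beside 9.78% of all tiles, and the quasi-binomial model called 0. The 3 were Impact and Inpp5f, where the effect in points was more negative at p20, and Slc38a4, where it went the other way.

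On return to S/L most features of the genome were called higher, and none of these windows was. Against 2i/L p20, p23 had 0 of 6 windows called higher where 63.6% of all features were, and p30 had 0 of 6 where 64.8% were; the quasi-binomial model called 0 in both. At an unadjusted p under 0.05 there were 4 windows at p23 and 0 at p30, beside 76.6% and 76.3% of all tiles. Peg13 was called higher at p23 without J-34 of 2i/L p20 (limma adjusted p = 0.00396) or J-37 of p23 (0.00643), and at p30 without J-34 of 2i/L p20 (0.012) or J-37 of p30 (0.0449). Igf2r/Airn was called higher at p30 without J-37 of p30 (limma adjusted p = 0.0142). All 6 windows were higher by group mean at p23, with a median of 7.98 points beside 37.8 points over all tiles. At each window every line was also higher at p23 than in its own 2i/L p20 culture. These gains ran from 0.521 points (Mcts2, J-37) to 23.8 points (Peg13, J-35). They were 6.68 to 14.5 points at Igf2r/Airn, 3.49 to 7.53 at Impact and 3.46 to 10.3 at Inpp5f. The gains by line were not tested, and their share over all features is not given here. The comparison of p30 with 2i/L p20, and those of a2i/L and PKCi/L with p30 below, were added after the data were seen.

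**Figure D2:**
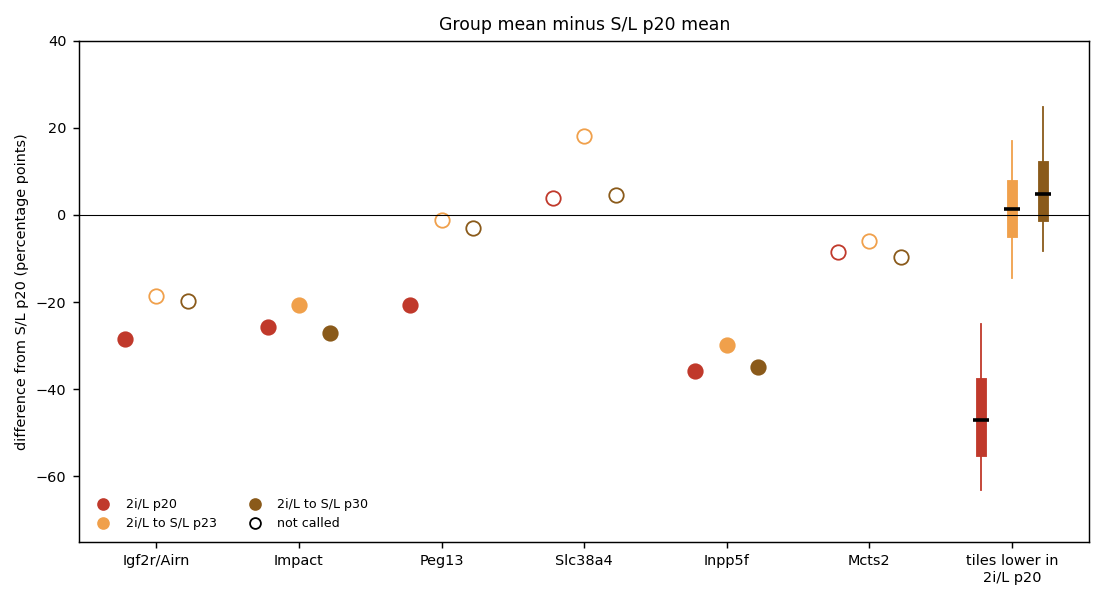
Difference of each group mean from the S/L p20 mean (percentage points, vertical axis) for the 6 windows, in 2i/L p20, p23 and p30; filled circles were called, open circles were not. At the right, bars show the same for 51334 tiles called lower in 2i/L p20 (tick, median; thick bar, quartiles; thin line, 5th to 95th percentile), whose median is -47.1 points in 2i/L p20, 1.29 points at p23 and 4.90 points at p30.

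Impact stayed low in every returned library. It had 5.84%, 12.0% and 6.80% at p23 (J-34, J-35, J-37) and 1.98% and 1.66% at p30 (J-35, J-37), against 24.8%, 32.6% and 29.4% in S/L p20. The difference from S/L p20 was -20.7 points at p23 (limma adjusted p = 0.034) and -27.1 points at p30 (log2 ratio -4.15 ± 0.60 SE, limma adjusted p = 0.000226).

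Inpp5f had 22.8%, 14.2% and 10.3% at p23 and 16.4% and 5% at p30, against 48.9%, 37.3% and 50.6% in S/L p20. It was -29.8 points from S/L p20 at p23 (limma adjusted p = 0.0287) and -34.9 points at p30 (limma adjusted p = 0.0047). Impact and Inpp5f were thus the 2 windows of 6 called lower than S/L p20 at either time, where 0.476% of features were called lower at p23 and 0.116% at p30 (0.904% and 4.77% higher). The p23 calls are fragile: leaving out any 1 library of either group ended the Impact call (adjusted p 0.0598 to 0.13), and leaving out any but J-34 of p23 ended the Inpp5f call (0.0513 to 0.15). Both p23 calls were also lost with a pseudocount of 0.5 and with the mean over CpGs. At p30 the Inpp5f call was lost without J-37 (adjusted p = 0.157).

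Igf2r/Airn differed by line after return. It had 30%, 27.3% and 11.1% at p23 and 36.1% and 7.08% at p30, against 41.3%, 40.2% and 42.7% in S/L p20. All returned libraries were below S/L p20, J-37 most of all. Such non-overlap below S/L p20 held at 3 of 6 windows at p23 (6.67% of features) and 4 of 6 at p30 (4.84%). Igf2r/Airn was not called at p23 (limma adjusted p = 0.255) or p30 (limma adjusted p = 0.132). The difference at p30 depends on the library: it was -34.3 points and called without the one titled J-35 (limma adjusted p = 0.0243), and -5.32 points without J-37 (limma adjusted p = 0.899).

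Peg13 was near its S/L level by group mean after return. It had 67.4%, 59.95% and 36.0% at p23 and 62.6% and 42.5% at p30, against 46.7%, 55.1% and 65.1% in S/L p20. As at the other windows, each line was higher at p23 than in its own 2i/L p20 culture, here by 14.6 to 23.8 points. The group mean differed from 2i/L p20 by 19.5 points (limma adjusted p = 0.0375), just under the size required. Between p30 and p23 no window was called (0.0238% of features lower, 0.285% higher; 2 windows and 13.4% of all tiles at p under 0.05 before adjustment, and 0 by the quasi-binomial model). Mcts2 stayed at 3.19%, 5.99% and 3.48% at p23 and 0.34% and 0.76% at p30, against 17.8%, 10.7% and 1.87% in S/L p20.

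**Figure D3:**
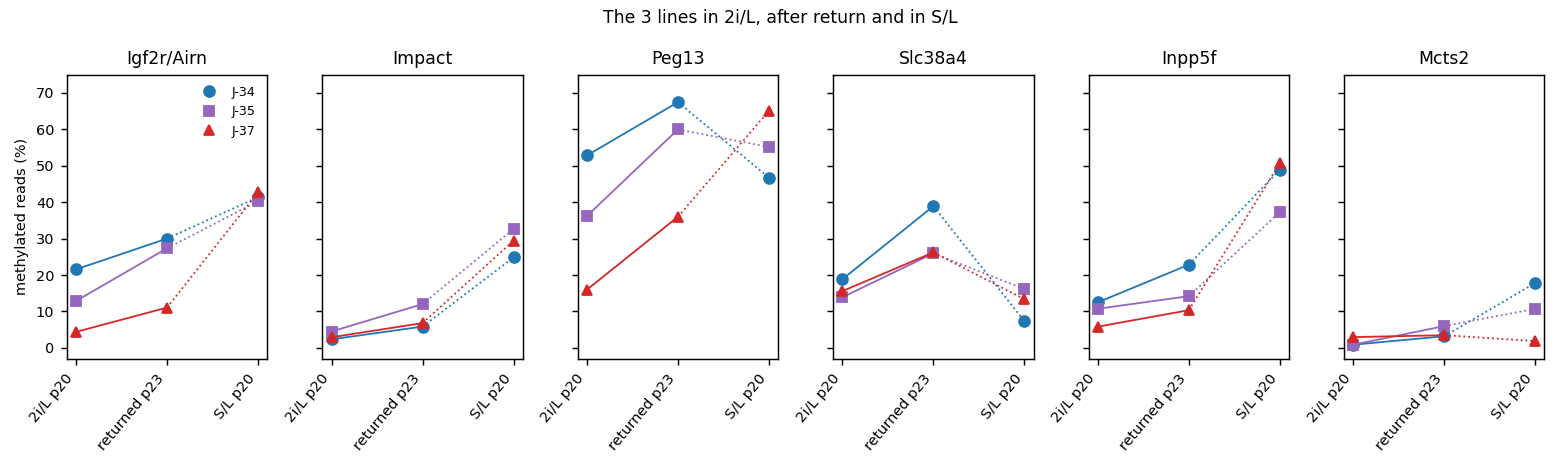
Share of methylated reads (%, vertical axis) in each of the 3 ESC lines for the 6 windows in 2i/L p20, after return to S/L (p23) and in S/L p20. Solid lines join 2i/L p20 to the returned culture of the same line, dotted lines join that to S/L p20. J-37 is lowest at Igf2r/Airn, Peg13 and Inpp5f in 2i/L p20 and at p23.

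The part of the 2i/L p20 loss still present after return was computed for the windows that had lost at least 20 points. It was 65.4% at p23 and 69.6% at p30 for Igf2r/Airn, 80.7% and 106% for Impact, 83.0% and 97.1% for Inpp5f, and 5.70% and 14.9% for Peg13. The p23 shares rest on 3 lines and the p30 shares on 2 libraries, both set against the loss of all 3 lines. A change between p23 and p30 is thus not a change within lines. Without J-34 of p23, the p23 share was 78.0% for Igf2r/Airn, 76.0% for Impact, 92.8% for Inpp5f and 37.1% for Peg13. The Igf2r/Airn share at p30 was 18.7% without J-37 and 121% without the library titled J-35. The Peg13 remainder has no stable sign: its difference from S/L p20 was -1.18 points at p23 and -3.08 points at p30, and ran over the alternatives from -7.66 to 8.06 points at p23 and from -13.1 to 7.19 points at p30. For the 51334 tiles called lower in 2i/L p20 the median was -2.75% at p23 and -10.2% at p30, and the 95th percentile 27.4% and 16.9%. Restricting these to the 9034 tiles at 30 to 70% in wild-type keratinocytes gave medians of -4.67% and -11.9%. Igf2r/Airn, Impact and Inpp5f lay above the 95th percentile of the tiles at both times and Peg13 did not, which is a description with no test; loss and remainder share the S/L p20 libraries.

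Slc38a4 had its highest ESC levels at p23. It had 38.9%, 25.9% and 26.2% at p23 and 11.2% and 22.3% at p30, against 7.32%, 16.2% and 13.3% in S/L p20. On CpGs read in each of the 21 fitted libraries the p30 libraries had 9.23% and 9.09%, and the difference of p30 from S/L p20 turned to -4.79 points from the 4.49 points on all CpGs. The p23 libraries all lay above S/L p20, the 1 window of 6 to do so (20.2% of features), and the difference was not called (limma adjusted p = 0.108). The CpG 823 bases from the window start had 49.4% of 85 reads methylated at p23, against 28.6% of 77 reads in S/L p20, each pooled over 3 libraries.

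**Figure D4:**
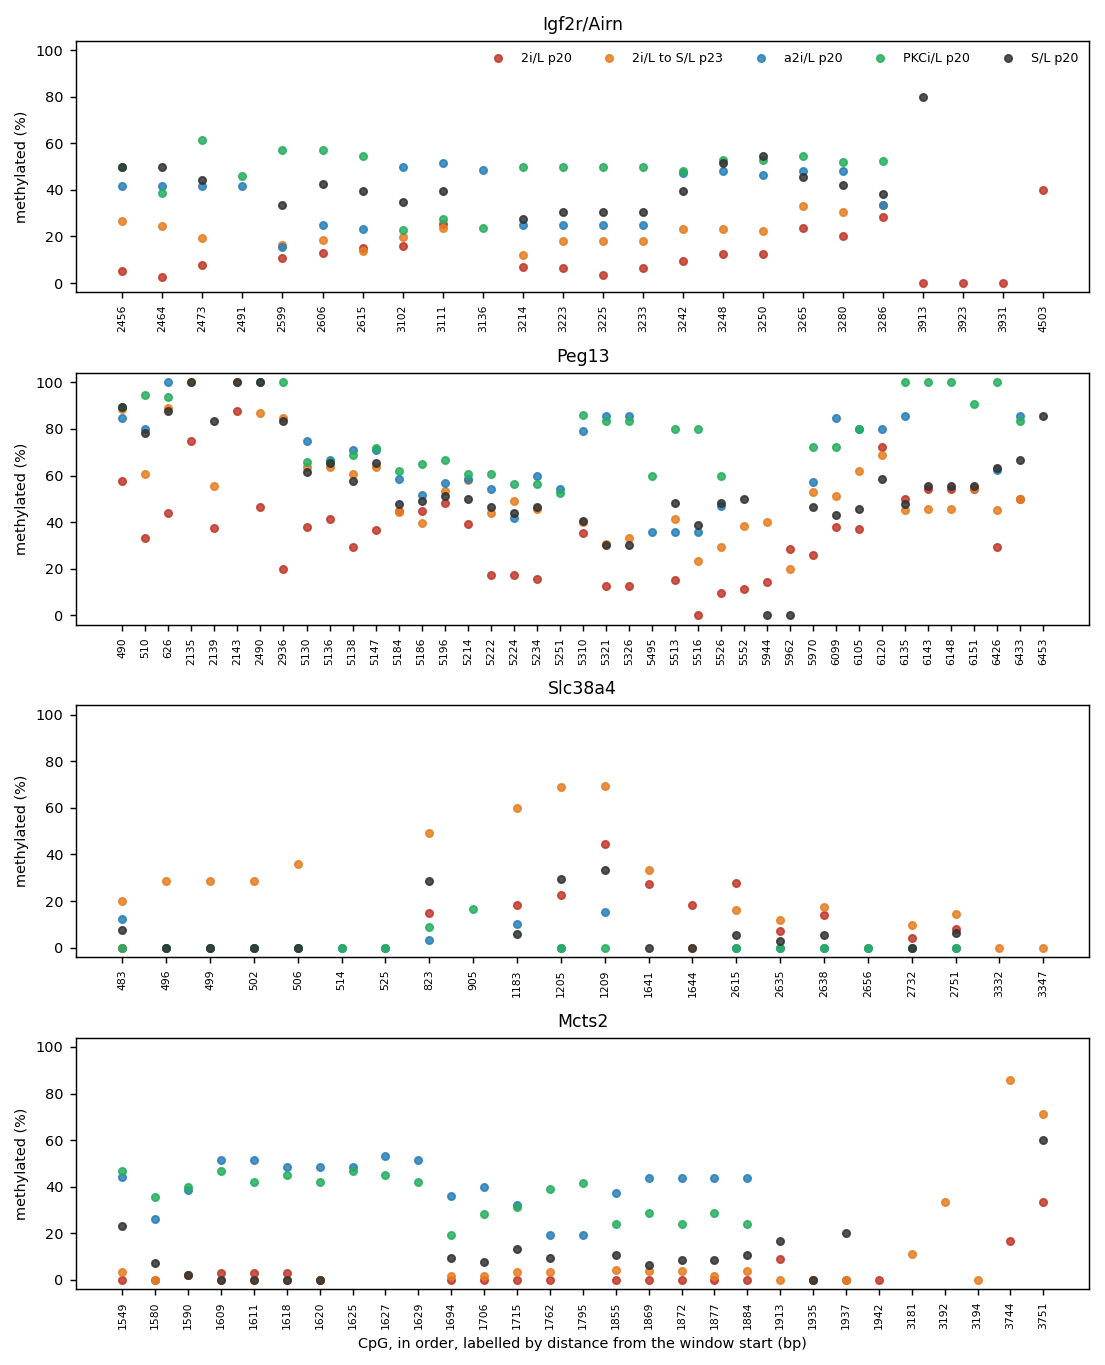
Methylation of single CpGs (%, vertical axes; reads pooled over the libraries of a group, CpGs with at least 5 such reads) in 4 windows, in order along the window and labelled by distance in bases from its start. At Mcts2 the CpGs 1549 to 1884 bases from the start are high in a2i/L and PKCi/L p20 and low in 2i/L p20, p23 and S/L p20.

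Within a window, stretches of CpGs (gaps of at most 150 bases) were read one by one; they are described with no test. Igf2r/Airn has a stretch of 6 CpGs at chr17:12934456-12934616, with 9.73% in 2i/L p20 and 17.9% at p23, against 44.0% in S/L p20. Its stretch of 12 CpGs at chr17:12935102-12935287 stood at 15.1% in 2i/L p20, and 24.2% at p23, against 39.7% in S/L p20. In wild-type keratinocytes these held 6.06% of 33 reads and 61.7% of 81 reads.

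Peg13 mixes stretches of different level. The one nearest to 50% in wild-type keratinocytes, chr15:72640970-72641152, stood at 40.2% in 2i/L p20, with 56.1% at p23, against 49.6% in S/L p20. The one at the edge of the window, chr15:72635490-72635627, was at 43.2% in 2i/L p20, with 82.3% at p23, against 85.6% in S/L p20. Each of the other 4 windows has 1 such stretch.

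In a2i/L and PKCi/L most of the windows were above their 2i/L level. Against 2i/L p20, 5 of 6 windows were called higher in a2i/L p20 and 4 of 6 in PKCi/L p20, where 63.6% and 63.7% of features were (lower, 0.00114% and 0.00454%). The exceptions were Slc38a4 in both media and Impact in PKCi/L. On CpGs at 30 to 70% in wild-type keratinocytes the Igf2r/Airn calls were lost, at 31.3 points in a2i/L (limma adjusted p = 0.106) and 6.08 points in PKCi/L (limma adjusted p = 0.734), and the Mcts2 difference in a2i/L, 19.5 points, fell below the size required. Without J-35 of a2i/L the Impact difference from 2i/L was 5.98 points and not called, and without J-37 of 2i/L p20 the Peg13 call in a2i/L was lost (limma adjusted p = 0.0725). Inpp5f had 47.6% and 46.6% in a2i/L p20 (J-34, J-35) and 72.2% and 48.5% in PKCi/L p20, against 12.5%, 10.7% and 5.83% in 2i/L p20. Igf2r/Airn had 46.3% and 37.95% in a2i/L p20 and 55.1% and 43.8% in PKCi/L p20, against 21.5%, 12.9% and 4.39% in 2i/L p20. Peg13 had 65.1% and 64.0% in a2i/L p20 and 70.4% and 75.6% in PKCi/L p20, against 52.8%, 36.2% and 16.0% in 2i/L p20. Each a2i/L and PKCi/L library lay above all 2i/L p20 libraries at Inpp5f, Igf2r/Airn and Peg13. The share of all features without overlap is not given here, but 63.6% and 63.7% were called higher.

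Slc38a4 went the other way. It had 2.68% and 3.87% in a2i/L p20 and 3.88% and 2.08% in PKCi/L p20, against 18.8%, 13.9% and 15.6% in 2i/L p20. The differences from 2i/L p20 were -12.8 points in a2i/L (limma adjusted p = 0.00111) and -13.1 points in PKCi/L (limma adjusted p = 0.000754), under the 20 points required and past a minimum of 10 points. From S/L p20 they were -8.99 points (limma adjusted p = 0.0481) and -9.28 points (limma adjusted p = 0.0426). No library of either medium reached one of 2i/L p20 or S/L p20. For that the share of all features is not given here. Features called lower in a2i/L and PKCi/L were 0.00114% and 0.00454% against 2i/L p20, and 0.21% and 0.0784% against S/L p20.

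Impact was called against S/L p20 in PKCi/L and not in a2i/L. PKCi/L p20 had 7.04% and 3.32% (J-34, J-35), against 24.8%, 32.6% and 29.4% in S/L p20, a call of -23.8 points (log2 ratio -2.93 ± 0.60 SE, limma adjusted p = 0.00285) in a comparison where 0.0784% of features were called lower. In a2i/L p20, J-34 had 9.23% and J-35 had 43.2%, so the lines disagreed and no difference from S/L p20 was detectable. The lone p10 cultures were at 33.5% for a2i/L (line J-34) and at 36.1% for PKCi/L (line J-35). Without J-35 the PKCi/L call was lost (limma adjusted p = 0.0856). PKCi/L and a2i/L p20 were not told apart at any window (0.05% of features called lower, 0.0556% higher; 1 window and 9.25% of all tiles at an unadjusted p under 0.05), except that Impact was called by the quasi-binomial model (adjusted p = 0.000208) and by limma without J-34 of a2i/L (adjusted p = 0.0464).

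Mcts2 was the one window called higher in these media than in S/L, although 4 of 6 were higher by group mean in each. It had 44.1% and 39.0% in a2i/L p20 and 32.1% and 42.7% in PKCi/L p20, against 17.8%, 10.7% and 1.87% in S/L p20. The differences were 31.4 points for a2i/L (limma adjusted p = 0.00444) and 27.3 points for PKCi/L (limma adjusted p = 0.0104), in comparisons where 7.95% and 6.77% of features were called higher (0.21% lower for a2i/L). The a2i/L call was lost without J-34 (adjusted p = 0.0525), and the PKCi/L call without J-35 (0.127) or without J-37 of S/L p20 (0.0698). The a2i/L difference was 9.57 points and not called on CpGs at 30 to 70% in wild-type keratinocytes (limma adjusted p = 0.237), and the PKCi/L call was lost when only the groups compared were fitted (limma adjusted p = 0.0575). At p10 a2i/L had 22.4% (14.6% on CpGs read in each fitted library) and PKCi/L 27.4%, against 17.9%, 26.7% and 11.6% in S/L p10.

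Some CpGs were read in most of the 9 libraries of a2i/L p20, PKCi/L p20, p30 and the keratinocytes, but in few or none of the other 20. They ranged from 2 per window at Igf2r/Airn and Inpp5f to 6 at Impact and Mcts2. Comparisons of a2i/L p20, PKCi/L p20 or p30 with S/L p20 or 2i/L p20 set libraries of these 9 against libraries of the other 20. There medium or return cannot be told apart from the library set. Within these 9, a2i/L p20 was called higher than p30 at Impact, Inpp5f and Mcts2 (0.203% of features; 0.365% lower) and PKCi/L p20 at Inpp5f and Mcts2 (0.0591%; 0.0693% lower). Inpp5f in a2i/L p20 was not called with the cell line as a block (limma adjusted p = 0.0676), and no window was called in either comparison when only these groups were fitted. Leaving out 1 library left 1 or 2 windows called in each; the Impact call was lost without J-35 of a2i/L (adjusted p = 0.168) or either p30 library (0.0521 and 0.0894), and the Inpp5f call in a2i/L without either a2i/L library (0.131 and 0.108) or J-37 of p30 (0.295). In PKCi/L the Inpp5f call was lost without J-34 of PKCi/L (0.118) or J-37 of p30 (0.239), and the quasi-binomial model called Igf2r/Airn as well (0.0169).

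The single compounds and the double knockout have 1 library each and no test. Igf2r/Airn had 0.75% in the Mek1/2 double knockout, 20.3% in PD and 36.9% in CHIR, against 38.1 to 51.9% in S/L p10. Impact had 0.91% in the double knockout, 4.55% in PD and 20.95% in CHIR, against 33.7 to 37.1% in S/L p10. Inpp5f had 2.75% in the double knockout, 15.8% in PD and 35.7% in CHIR, against 40 to 55.6% in S/L p10. In PD, 0 of 244 Mcts2 reads were methylated, which would allow a level of up to 1.23% if those reads were independent. CHIR had 28.8% at Mcts2 and the double knockout had 1.38%, against 11.6 to 26.7% in S/L p10. On CpGs read in each of the 21 fitted libraries CHIR had 17.1% and the S/L p10 libraries 5.17 to 26.3%. Slc38a4 had 2.25% in the double knockout, 3.28% in PD and 15.3% in CHIR, against 5.32 to 22.95% in S/L p10. Peg13 had 6.39% in the double knockout, the lowest of all 29 libraries, 30.8% in PD and 54.1% in CHIR, against 48.96 to 51.2% in S/L p10. The knockout line differs from the ESC lines in origin as well as genotype, and these cannot be told apart.

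The keratinocytes labelled 2i/L split the windows. Impact had 4.42% and 6.12% in 2i/L keratinocytes, against 40.7% in wild-type keratinocytes. Inpp5f had 0 of 41 reads methylated, which allows up to 7.32%, and 9.84% of 61 reads (4.26% of 47 on CpGs read in each fitted ESC library) in 2i/L keratinocytes, against 52.2% of 23 reads in wild-type keratinocytes. Slc38a4 had 17.3% and 13.3% in 2i/L keratinocytes, against 73.1% in wild-type keratinocytes. At these windows both 2i/L libraries were below the wild-type one.

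At the other windows the keratinocyte libraries lay close together. Igf2r/Airn had 54.8% and 44.9% in 2i/L keratinocytes, against 46.2% in wild-type keratinocytes. Peg13 had 52.9% and 52.8% in the 2i/L keratinocyte libraries, against 49.7% in the wild-type one. Mcts2 had 37.2% and 33.6% in the 2i/L keratinocyte libraries, against 36.99% in the wild-type one. With 2 libraries against 1, differing also in labelled sex, there is no test.

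Other maternal imprints were read in 11 further windows, set by general knowledge of mm9: Peg3, Snrpn, Kcnq1ot1, Mest, Peg10, Nap1l5, Grb10, Zrsr1, Plagl1, Nnat and Gnas exon 1A. In wild-type keratinocytes 10 of 11 lay at 30 to 70%. In 2i/L p10 3 of 11 were called lower than S/L p10, and in 2i/L p20 9 of 11 lower than S/L p20. After return, 5 of 11 were called below S/L p20 at each time (0.476% of features at p23, 0.116% at p30). Against 2i/L p20, 0 of 11 were called higher (63.6% of features at p23, 64.8% at p30). In a2i/L and PKCi/L p20, 0 of 11 were called against S/L p20 (7.95% and 6.77% of features higher, 0.21% and 0.0784% lower). The 2 a2i/L p20 libraries, J-34 and J-35, split at Grb10 (12.5% and 43.1%), Zrsr1 (5.45% and 34.6%) and Plagl1 (8.42% and 38.5%). In S/L p20 these windows held 42.0 to 45.3%, 31.9 to 36.7% and 41.6 to 44.7%. At Mest the 2 libraries had 29.9% and 59.6%, and at the remaining windows they lay closer together. The lack of a call is thus not evidence that levels were equal. The median difference of the 11 windows from S/L p20 was -26.3 points in 2i/L p20, -24.0 points at p23 and -18.1 points at p30.

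The tiles whose levels followed the mean of the 6 windows most closely over the 29 libraries were at chr2:174123440-174123996 (Pearson r = 0.919) and chr2:174125015-174126001 (r = 0.892), of 79965 ranked. They end 27 and 25 kb before the Gnas exon 1A window. The next were at chr1:119994045-119994098, chr4:21327107-21327414 and chr12:97521644-97521743 (r = 0.885, 0.884 and 0.881). The libraries share lines and media, so these values are a description.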

How the data were processed

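For each library the authors deposited a CpG list. The submitters' processing notes name BSMAP 2.89 and mm9; read filters were not given in the sources used here. Per the labels, 12 barcoded reactions were pooled before bisulfite conversion. Each deposited line gives methylated over all reads as text, and a score, which was found to be 1000 times the share, cut to a whole number, without exception. Reads were summed per library over the 6 windows, 11 further windows and 88035 tiles of 1000 bp (at least 3 CpGs and 10 reads per library). log2((methylated + 1)/(unmethylated + 1)) was fitted with limma 3.58.1 over the 21 libraries of 8 replicated ESC groups; keratinocytes and single libraries were not fitted. Replicates are the 3 ESC lines; p-values measure the spread between these. Same-line libraries pair by label, and their deviations from group means correlated at -0.0294 to 0.147. The members, windows and lists were chosen with earlier results of these data known. Every window was tested in every comparison, and the 5 tiles most correlated with the windows are named. On simulated data the fit recovered most large drops but almost none near the 20-point minimum; the larger drops were added to the simulation after the small ones were rarely recovered, and both were kept. A difference that was not called is therefore not shown to be absent.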

Additional observations from a re-analysis of the deposited data

How the results depend on the processing

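Of the calls of 2i/L p20 against S/L p20, Impact and Inpp5f were kept in every alternative that gave them a value. Igf2r/Airn was lost on CpGs at 30 to 70% in wild-type keratinocytes. Peg13 was lost in the settings given above, and on CpGs with 5 reads in each fitted library (limma adjusted p = 0.0736). The Peg13 call was lost too on CpGs at 30 to 70% in wild-type keratinocytes (limma adjusted p = 0.0573). The same held when only the groups compared were fitted (limma adjusted p = 0.0592). Summing only CpGs at 30 to 70% in wild-type keratinocytes left 4 of 6 windows with a value (none for Slc38a4 or Inpp5f). It called 1 window in 2i/L p10, 2i/L p20, p23 and p30 (each against S/L), 0 in a2i/L p20 against S/L p20, 2 in a2i/L and 2 in PKCi/L p20 against 2i/L p20, 1 in a2i/L and 1 in PKCi/L p20 against p30, and 1 where p30 was set against 2i/L p20; it also reversed Mcts2 between p20 and p10 of S/L (3.71 points). The mean over CpGs gave 1 window in 2i/L p10 against S/L p10, 0 in p23 against S/L p20 and 1 in PKCi/L p20 against p30. A pseudocount of 0.5 gave 0 in p23 against S/L p20. Fitting only the groups compared gave 1 in PKCi/L p20 against S/L p20 and 0 in a2i/L and 0 in PKCi/L p20 against p30. The quasi-binomial model gave 1 in PKCi/L against a2i/L p20 and 1 in 2i/L p20 against 2i/L p10. With no minimum difference there were 1 in 2i/L p10 against S/L p10, 3 in p23 against 2i/L p20, 2 in a2i/L p20 against S/L p20, and 1 where 2i/L p20 was set against 2i/L p10; with 10 points, 1 in p23 against 2i/L p20 and 1 in 2i/L p20 against 2i/L p10. The cause was not tested. The share of all features called under each alternative is not given in this section. A changed count of windows, here or with a library left out, can therefore not be set against the genome.

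Leaving out each library in turn gave 0 to 1 windows in p23 against S/L p20, 0 to 1 in p23 against 2i/L p20, 1 to 3 in p30 against S/L p20, 0 to 1 in a2i/L p20 and 0 to 2 in PKCi/L p20 against S/L p20, 0 to 1 in PKCi/L against a2i/L p20, 0 to 2 in 2i/L p20 against 2i/L p10, 1 to 2 in a2i/L and 1 to 2 in PKCi/L p20 against p30, and 0 to 2 in p30 against 2i/L p20. Where that leaves 1 library in a group, it is assumed to vary like the others. With the line as a replicate block, 4 windows were called in 2i/L p20 and 2 in p23 and p30 (each against S/L p20), and the only call changed was Inpp5f in a2i/L p20 against p30. On CpGs read in each fitted library, or with 5 reads in each, the retained loss of Impact at p30 was 104.5% or 103%; that of Peg13 was not computed, since its loss was then under 20 points. Differences that were called or had an unadjusted p under 0.05 were judged singly, a split made after the data and the sign changes were seen. Of the 46 others, 28 changed sign in some alternative.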
